A study of Rattus norvegicus with 16 samples.

Results

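The comparison described here is that of day 4 with day 2 for cells adhering to titanium implants labelled as having a nanosurface (AT-I), taken over all genes. It rests on the arrays titled AT-I, 4 of day 4 and 4 of day 2, which make up 8 of the 16 arrays of the study. The other 8 arrays (AT-II, labelled a microrough surface, in the contralateral tibia) entered the fit only through the shared estimate of spread and the test of whether the time courses differed. Male Sprague Dawley rats of 326 to 350 g, 4 for each day and 8 in all, received commercially pure titanium implants in drilled tibial sites, with 2 of AT-I in the tibia of one side and 2 of AT-II in that of the other side. RNA of the adherent cells, from the 2 implants of a tibia, was hybridised to Affymetrix Rat Gene 1.1 ST arrays, which report 1 value per probe set. All groups shared the strain, sex, surgery and metal. The labels name no gene manipulation. All rats had ketamine, xylazine and lidocaine with epinephrine at surgery, and ketoprofen, an anti-inflammatory analgesic, once daily through the second day, so that dosing had ended before day 4. Days 2 and 4 are different rats, and no label links a replicate number to an animal. The labels call the cells tibial without naming a cell type, so each value is that of a mixed population. Fewer cells of a type and less RNA per cell cannot be told apart in such samples.

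Bone that forms against an implant begins with a blood clot and an inflammatory infiltrate, in which neutrophils and macrophages release chemokines and cytokines. Mesenchymal progenitors then arrive, differentiate into osteoblasts under the transcription factors Runx2 and Sp7, and secrete a collagen matrix that they later mineralise. Osteocytes are osteoblasts embedded in that matrix, and osteoclasts are the cells of myeloid origin that resorb it.

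All 17245 genes with an array row of their own were tested. Values below are log2 expression after RMA, the authors' normalisation across arrays, so a difference of 1 is a doubling, and they are given for replicates 1 to 4 in that order. Differences are day 4 minus day 2 with their standard error (SE), from limma, with Benjamini-Hochberg adjusted p-values over all genes, and "rose" and "fell" are used where the adjusted p was under 0.05. Precision is limited by the small number of arrays. The p-values measure only the spread between arrays, pooled over the AT-I and AT-II groups, part of which may be technical.

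The AT-I arrays were not alike within their groups, and 1 of them stood apart. Of 31 values that lay outside their group of 4 by Dixon's criterion, among 410 groups examined, 18 belonged to AT-I day 2 replicate 1. That array was low for matrix and macrophage genes and high for inflammatory ones. The mean of 23 monocyte and macrophage genes was 8.89 on it, against 9.59 to 9.73 on the other day 2 arrays, and the mean of 16 genes of the NF-kB pathway was 9.98, against 8.50 to 8.69. Every main result is therefore also given without it where that ended the call or moved the value by over 1.5 times. The spread of values within an array (interquartile range over genes) was 2.67 ± 0.222 (SD, n = 4) at day 2 and 3.04 ± 0.349 at day 4 (p = 0.1429 in a two-sided exact permutation test). The median of each array was 6.62 ± 0.0383 at day 2 and 6.77 ± 0.102 at day 4 (exact permutation p = 0.0286, the smallest that 4 against 4 arrays allow, and 0.0857 after adjustment over 3 measures). The part of these array differences in the gene changes was not tested.

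From day 2 to day 4, 1525 genes rose and 458 fell on the AT-I surface, which is 8.84% and 2.66% of the genes tested. Counts within each gene list below are to be read beside these shares. The rises were the larger changes. They exceeded 1 on the log2 scale for 441 genes and 2 for 83 genes, whereas 31 genes fell by more than 1 and 5 by more than 2. The values of the 4 day 4 arrays lay wholly above those of day 2 for 1942 genes (11.3%) and wholly below for 691 (4.01%). Called falls lay mostly among dim rows: 64.8% of them had a mean under 6 over the 8 arrays, against 6.75% of the called rises and 38.4% of all genes tested. The median change of all genes was -0.05, and -0.21 after each array was centred on its own median. Centring changed the split from 76.9% higher to 39.7% higher, with 991 rises (5.75%) and 1504 falls (8.72%), so the balance between rises and falls depends on the scaling. The count of falls also moved with single arrays. It was 262, 732, 302 and 298 without day 2 replicates 1, 2, 3 and 4 in turn, and 234, 272, 1070 and 167 without day 4 replicates 1, 2, 3 and 4. It was 101 when only the 8 AT-I arrays were fitted. Rises numbered 991 without day 4 replicate 4 and 959 with only the 8 AT-I arrays. With the replicate number as a block over all 16 arrays, 1850 genes rose and 722 fell. Across all 21 other settings, 735 of the 1525 rises and 36 of the 458 falls were called in every setting that tested them.

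**Figure D1:**
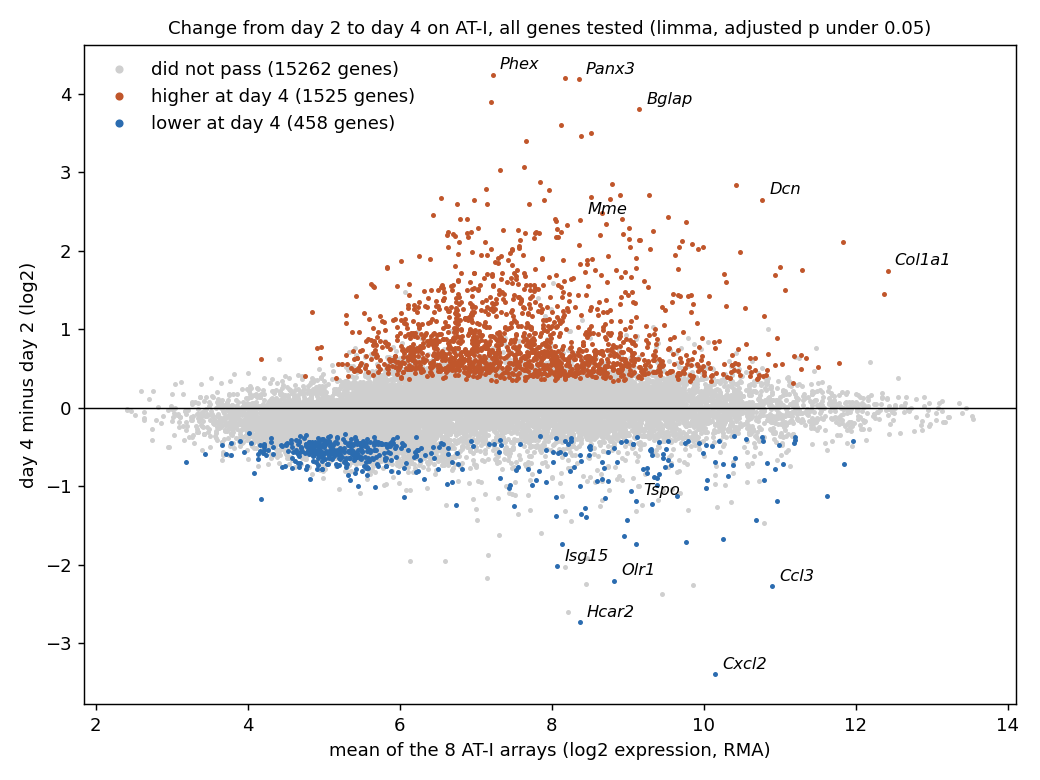
Change from day 2 to day 4 on AT-I (vertical axis, log2) against the mean of the 8 AT-I arrays (horizontal axis, log2 expression) for 17245 genes, with the 1525 called higher in orange, the 458 called lower in blue and the rest in grey. The 3 largest rises, Phex, Aspn and Panx3, exceed 4, and many called falls lie at means under 6 with changes smaller than 1.

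The list of bone mineral and osteocyte genes held several of the largest rises of the comparison, beside small leucine-rich proteoglycans such as Aspn and Omd. Of 24 measured members of that list, 13 rose and 0 fell, with a median of 1.02, against -0.05 for all genes. Among the mineral-binding matrix proteins 4 of 5 rose. Bglap, which encodes osteocalcin, was at 6.21, 7.92, 6.30 and 8.54 at day 2 and 11.76, 10.84, 10.10 and 11.48 at day 4. Every day 4 value lay above every day 2 value, and at day 2 replicates 1 and 3 were the low ones. The rise was 3.81 ± 0.60 (adjusted p = 0.000748), or 14-fold. Dmp1, an acidic phosphoprotein of osteocytes, was at 6.21, 7.17, 6.65 and 6.61 at day 2 and 10.75, 9.72, 9.65 and 10.35 at day 4, a rise of 3.46 ± 0.36 (adjusted p = 3.43e-05) without overlap. Ibsp, bone sialoprotein, was at 6.57, 10.31, 9.64 and 9.51 at day 2 and 11.95, 11.78, 11.79 and 11.87 at day 4. Replicate 1 was far below the others at day 2, and the day 4 arrays were nearly level. Its rise of 2.84 ± 0.72 (adjusted p = 0.0186) was 2.03 (adjusted p = 0.043) without that array. Mepe, another phosphoprotein of the same family, did not pass (0.07 ± 0.15, adjusted p = 0.758).

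The RefSeq sequence before the start of Bglap (GRCr8, chr2:176137319-176137568, minus strand, 250 bases ending just before the start, shown 5′ to 3′) is given because Runx2 and its target osteocalcin both rose. It holds 1 copy of ACCACA, the core letters bound by RUNX factors, searched on both strands and set in capitals, from 118 to 113 bases before the start.
Bglap: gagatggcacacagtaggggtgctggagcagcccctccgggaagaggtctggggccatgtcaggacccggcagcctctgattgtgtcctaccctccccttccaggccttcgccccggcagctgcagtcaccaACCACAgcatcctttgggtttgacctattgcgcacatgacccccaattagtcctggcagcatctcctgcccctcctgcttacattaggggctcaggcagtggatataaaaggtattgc
These letters are common: 14.5% of all 33469 promoters of that length held them. They occurred in 11.7% of the 14045 genes tested that have an entry, and in 9.25% of the 1211 of them that rose. The windows of Dmp1 and Ifitm5 held no copy, which says nothing of the factor. A match is a description and not a site.

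Enzymes and carriers of phosphate, pyrophosphate and citrate rose in 5 of 10 cases. Phex, the endopeptidase whose loss causes renal phosphate wasting, was at 5.13, 5.29, 4.90 and 5.07 at day 2 and 9.97, 8.89, 8.63 and 9.87 at day 4. The day 2 values were tightly grouped, and the day 4 values fell into 2 higher and 2 lower arrays, all above day 2. The rise of 4.24 ± 0.39 (adjusted p = 1.76e-05), or 18.9-fold, was the largest of the comparison. Slc13a5, a citrate transporter, was at 5.39, 6.90, 5.97 and 7.03 at day 2 and 10.19, 10.04, 9.74 and 9.73 at day 4, a rise of 3.60 ± 0.41. Smpd3, the neutral sphingomyelinase needed for mineralisation, rose by 3.50 ± 0.44. Alpl, the tissue-nonspecific alkaline phosphatase that frees phosphate from pyrophosphate, was at 10.28, 9.82, 8.70 and 9.77 at day 2 and 11.20, 11.02, 10.81 and 10.74 at day 4. It rose by 1.30 ± 0.26 (adjusted p = 0.00425), with no overlap. Phospho1, a phosphatase of matrix vesicles, rose by 0.87 ± 0.20. The genes that raise pyrophosphate, an inhibitor of mineral growth, did not pass. Enpp1 differed by 0.74 ± 0.24 (adjusted p = 0.0544, and 0.0421 with the replicate block) and Ankh by 0.58 ± 0.25 (adjusted p = 0.142). Fgf23, the hormone of osteocytes that lowers phosphate, did not pass either (-0.53 ± 0.19).

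Of 4 osteoblast membrane proteins 3 rose. Panx3, a channel of osteoblasts and chondrocytes, was at 5.11, 7.23, 6.17 and 6.54 at day 2 and 10.68, 10.28, 10.21 and 10.61 at day 4, a rise of 4.18 ± 0.55 (adjusted p = 0.000162). Ifitm5, a membrane protein known from osteoblasts, was at 6.76, 7.80, 7.18 and 7.73 at day 2 and 10.53, 10.19, 10.04 and 10.12 at day 4, a rise of 2.85 ± 0.27 (adjusted p = 1.93e-05). Cdh11, the osteoblast cadherin, rose by 1.45 ± 0.20. Of the 5 genes listed as osteocyte markers 1 rose, the homeobox factor Irx5 (1.53 ± 0.21). Dmp1, which rose and is also known from osteocytes, was counted with the matrix proteins above, so this count depends on how genes were assigned. Sost, which encodes the Wnt inhibitor sclerostin of mature osteocytes, was at 6.02, 5.91, 5.93 and 6.28 at day 2 and 6.16, 6.05, 6.10 and 6.39 at day 4. Its groups overlapped and its difference was 0.14 ± 0.14 (adjusted p = 0.521). Reln (0.06 ± 0.16) did not pass either.

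**Figure D2:**
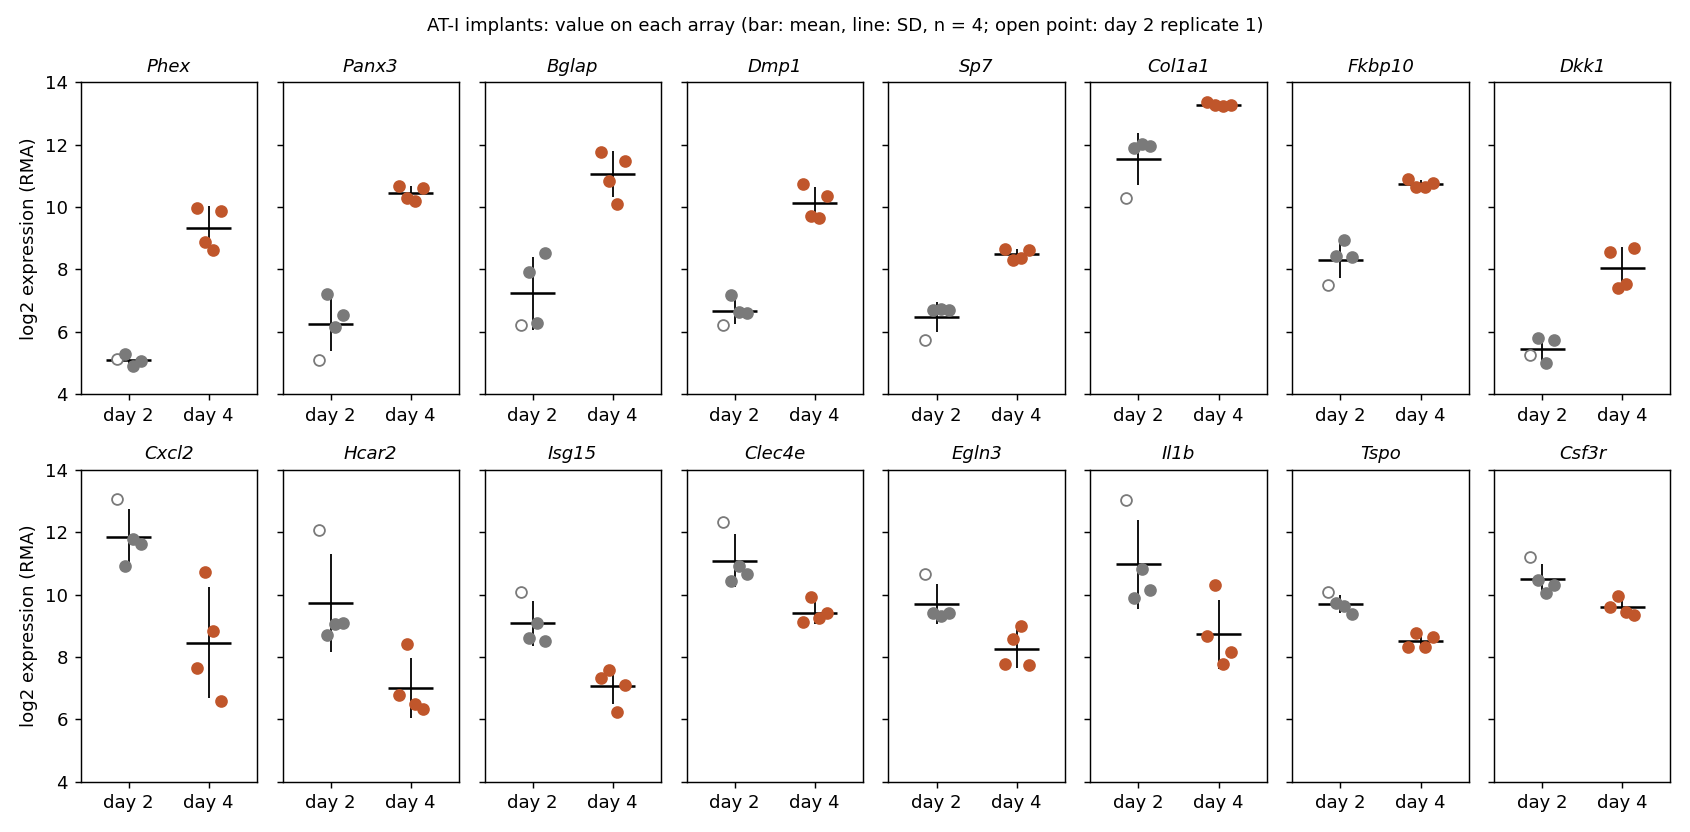
Value on each AT-I array (log2 expression) at day 2 (grey) and day 4 (orange) for 8 genes that rose (top) and 8 with lower day 4 means (bottom). The top genes are of bone and matrix. The bottom genes are of inflammation and myeloid cells, beside Egln3 of the hypoxia list and Tspo of the mitochondrial membrane. Bars give the mean and lines the SD of 4 arrays, and the open point is day 2 replicate 1. That array is the lowest of its group for Col1a1 and Fkbp10 and the highest for Cxcl2, Hcar2 and Il1b, and Il1b did not pass the test.

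Transcription factors of the osteoblast lineage rose in 12 of 18 measured cases, and 0 fell, with a median of 0.78. Runx2, the factor that commits progenitors to the lineage, was at 7.10, 7.59, 7.85 and 7.74 at day 2 and 9.04, 8.65, 8.81 and 8.87 at day 4. It rose by 1.27 ± 0.17 (adjusted p = 0.000201), with every day 4 array above every day 2 array. Sp7, or osterix, which acts after Runx2, was at 5.74, 6.71, 6.73 and 6.70 at day 2 and 8.65, 8.29, 8.36 and 8.63 at day 4. At day 2 the other 3 arrays were nearly equal and replicate 1 was lower. Its rise was 2.01 ± 0.25 and 1.77 (adjusted p = 0.000228) without that array. Dlx5 and Dlx3, homeobox factors of bone, rose by 2.23 ± 0.24 and 1.85 ± 0.23. Twist1, a factor of mesenchymal progenitors that restrains Runx2, rose as well, by 1.71 ± 0.32, with Prrx1 at 1.27 ± 0.24. Msx2 (0.00 ± 0.16) and Atf4 (-0.25 ± 0.15) did not pass.

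Fibrillar collagens rose in 9 of 14 measured genes, with a median of 1.46 and no fall. Col1a1, the main chain of bone collagen, was at 10.29, 11.89, 12.04 and 11.95 at day 2 and 13.35, 13.27, 13.25 and 13.29 at day 4. The day 4 arrays lay close together, and day 2 replicate 1 lay far below the next array. The rise was 1.75 ± 0.33 (adjusted p = 0.00263), or 1.33 (adjusted p = 0.00186) without that array. Col1a2, its partner chain, rose by 2.11 ± 0.39. The minor fibrillar chains Col11a1 (2.69 ± 0.33), Col5a2 (2.14 ± 0.35) and Col24a1 (1.55 ± 0.21) rose too, as did the fibril-associated Col12a1 (2.05 ± 0.44). Col3a1, a collagen of soft and granulation tissue, rose by 1.43 ± 0.38 (adjusted p = 0.0246), but by 1.00 (adjusted p = 0.0595) without day 2 replicate 1, where it no longer passed. Col2a1, the collagen of cartilage, was at 6.66, 6.46, 6.59 and 6.53 at day 2 and 6.56, 6.26, 6.99 and 6.67 at day 4, and did not pass (0.06 ± 0.14, adjusted p = 0.819).

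The enzymes that modify, fold and process collagen rose in 20 of 26 measured cases and 0 fell, a share of 76.9% beside 8.84% of all genes, with a median of 1.30. All 5 cross-linking oxidases rose, from 0.59 ± 0.17 for Loxl1 to 2.26 ± 0.22 for Loxl4. Lox itself was at 8.21, 8.40, 9.56 and 8.44 at day 2 and 10.86, 10.36, 10.85 and 10.75 at day 4, a rise of 2.05 ± 0.29 (adjusted p = 0.000304). Among hydroxylases and chaperones 11 of 15 rose. Fkbp10, a chaperone of type I procollagen whose loss gives brittle bones, was at 7.50, 8.42, 8.94 and 8.39 at day 2 and 10.90, 10.64, 10.65 and 10.79 at day 4, a rise of 2.43 ± 0.31 (adjusted p = 0.000128). P3h4 (2.14 ± 0.35), Plod2 (1.70 ± 0.27), P3h1 (1.65 ± 0.24), Crtap (1.47 ± 0.22) and Serpinh1 (1.50 ± 0.26), which act on the collagen helix in the endoplasmic reticulum, rose as well. P4ha1 (0.15 ± 0.18) and P4hb (0.07 ± 0.12), subunits of the main prolyl hydroxylase, did not pass, while P4ha2 (1.10 ± 0.29) and P4ha3 (1.00 ± 0.28) rose. Without day 2 replicate 1, Loxl1 (0.52 (adjusted p = 0.091)), P4ha2 (0.90 (adjusted p = 0.0777)) and P4ha3 (0.81 (adjusted p = 0.0943)) no longer passed. Of the procollagen proteinases and enhancers 4 of 6 rose, among them Adamts2 (2.40 ± 0.26), Pcolce (2.03 ± 0.36) and Bmp1 (1.89 ± 0.22).

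The secretory pathway, through which procollagen leaves the cell, had 18 of 38 members higher and 0 lower, with a median of 0.32. The count was 12 after centring. Sec23a (1.32 ± 0.15) and Sec24d (1.06 ± 0.16), coat proteins of the vesicles that carry large cargo, rose. Sec24d was at 8.75, 8.81, 9.30 and 8.93 at day 2 and 10.15, 9.75, 10.01 and 10.11 at day 4, without overlap. Kdelr3, a retrieval receptor, rose by 1.28 ± 0.25. Creb3l1, a membrane-bound factor of osteoblast secretion, was at 6.71, 7.61, 7.99 and 7.84 at day 2 and 10.08, 9.96, 9.74 and 9.72 at day 4, and rose by 2.34 ± 0.26 (adjusted p = 5.36e-05). It was the 1 of 19 unfolded protein response genes that rose, and Hspa5 (-0.18 ± 0.13) and Xbp1 (-0.21 ± 0.15), central genes of that response, did not pass. Ddit3, a stress factor of the same list, fell by 1.28 ± 0.30 (adjusted p = 0.0124).

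Small leucine-rich proteoglycans, which bind collagen fibrils, rose in 8 of 12 cases with a median of 1.77. Aspn, asporin, was at 4.77, 6.04, 6.73 and 6.76 at day 2 and 10.51, 9.68, 10.34 and 10.57 at day 4. The groups were far apart, with replicate 1 lowest at day 2. It rose by 4.20 ± 0.53 on the brighter of its 2 array rows, and by 2.04 with the mean of both. Omd, osteomodulin, which osteoblasts make, was at 4.77, 5.79, 4.81 and 5.63 at day 2 and 9.58, 8.79, 8.41 and 9.82 at day 4, a rise of 3.90 ± 0.44. Dcn, decorin, was at 8.15, 9.75, 9.89 and 9.98 at day 2 and 12.23, 11.66, 12.15 and 12.31 at day 4, with replicate 1 low at day 2, and rose by 2.65 ± 0.35 (adjusted p = 0.000173). Fmod (2.68 ± 0.29), Ogn (2.08 ± 0.30), Lum (1.79 ± 0.41) and Bgn (1.75 ± 0.26) rose too. The 4 that did not pass, Prelp, Kera, Epyc and Chad, are known from cartilage, tendon or cornea and differed by -0.31 to 0.57.

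Among 22 matricellular and provisional matrix genes 7 rose, and the median was 0.24. Thbs2 (2.20 ± 0.48) and Thbs4 (2.21 ± 0.47), thrombospondins, and Sparc, osteonectin (1.45 ± 0.24), rose. Postn, periostin, rose by 1.60 ± 0.44 (adjusted p = 0.0295) and by 1.04 (adjusted p = 0.0502) without day 2 replicate 1, where it no longer passed. Fn1 (-0.18 ± 0.15) and Tgfbi (-0.21 ± 0.15), abundant proteins of early wound matrix, did not pass.

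Basement membrane genes rose in 8 of 17 cases (5 after centring), led by Lamb2 (1.32 ± 0.20) and Hspg2, perlecan (1.30 ± 0.17). The collagen IV chains Col4a1 (0.42 ± 0.17) and Col4a2 (0.00 ± 0.22) did not pass. For glycosaminoglycan synthesis 10 of 26 rose (6 after centring, and 6 without day 2 replicate 1). The largest were Papss2 (1.57 ± 0.21), which makes the sulphate donor, and Chsy3 (1.56 ± 0.21), a chondroitin synthase.

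Of 19 metalloproteinases and inhibitors 6 rose. Mmp16 and Mmp14, membrane-type enzymes, rose by 3.06 ± 0.36 and 1.33 ± 0.24. Mmp2, the gelatinase that Mmp14 activates, was at 6.75, 8.28, 8.45 and 8.23 at day 2 and 10.86, 10.44, 10.32 and 10.92 at day 4, and rose by 2.71 ± 0.37 (adjusted p = 0.000219). Mmp12, an elastase of macrophages, was at 9.16, 8.40, 8.77 and 8.30 at day 2 and 10.52, 11.69, 11.01 and 9.89 at day 4, a rise of 2.12 ± 0.43 that was largest on day 4 replicate 2. Mmp13, the collagenase of osteoblasts and hypertrophic cartilage, was at 8.58, 9.55, 9.97 and 10.22 at day 2 and 10.10, 9.68, 8.51 and 11.35 at day 4, and did not pass (0.33 ± 0.49, adjusted p = 0.676). Its day 4 arrays spread over nearly 3 units and straddled the day 2 range. Of 23 ADAMTS and ADAM genes 10 rose (6 after centring, when 2 fell, and 6 without day 4 replicate 1), with Adamts18 (2.78 ± 0.38) and Adamts10 (1.51 ± 0.23) the largest.

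**Figure D3:**
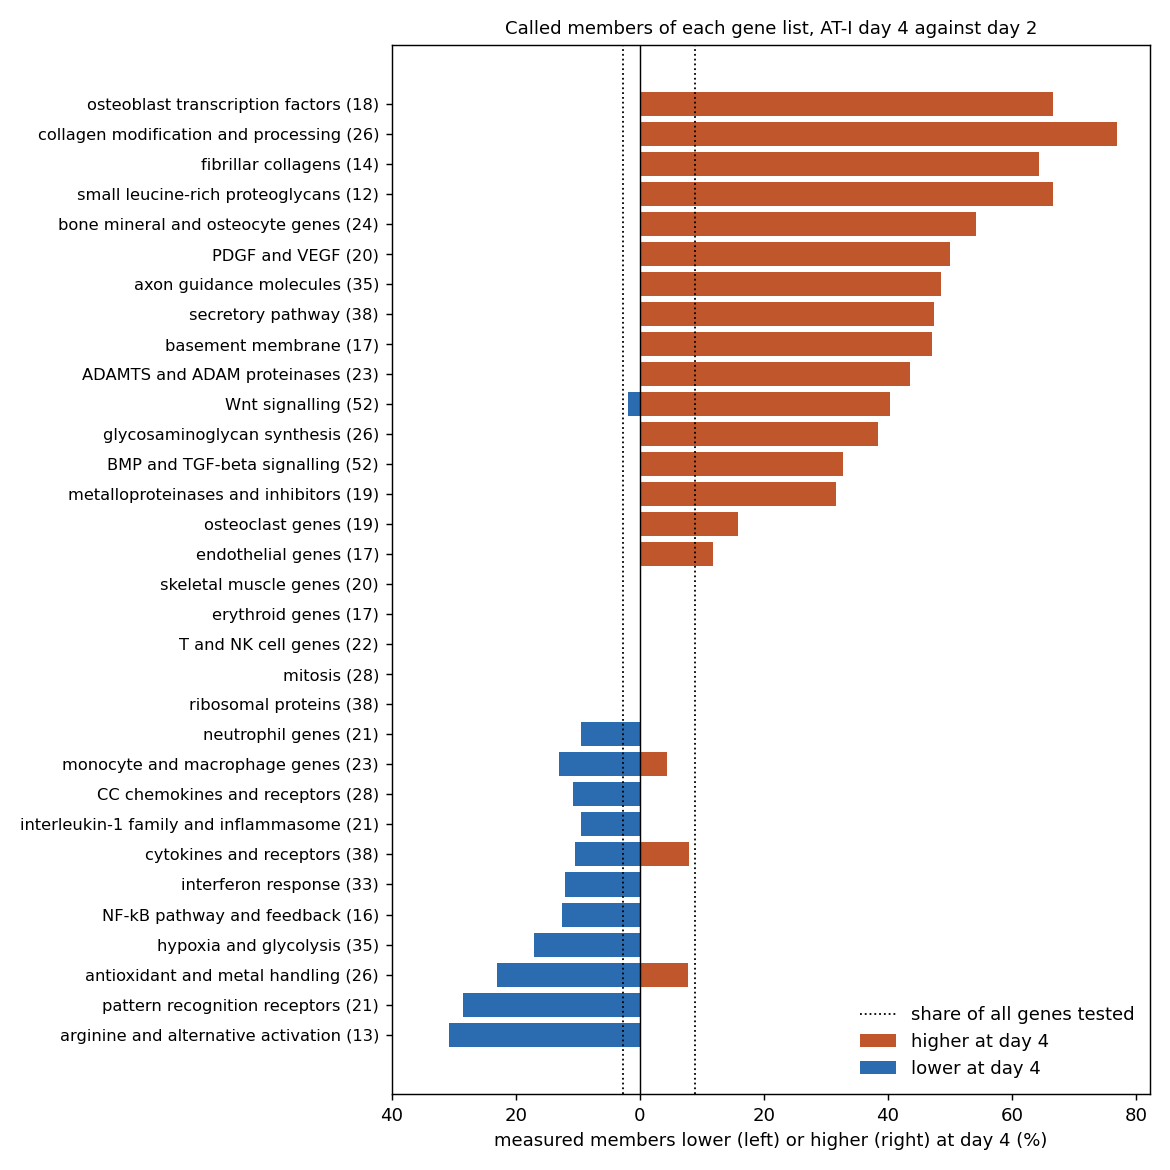
Share of the measured members of each gene list (number in brackets) called higher (orange, to the right) or lower (blue, to the left) at day 4, with dotted lines at the shares of all genes tested (8.84% higher, 2.66% lower). Collagen modification genes rose in 76.9% of cases (20 of 26), and the lists of muscle, erythroid, T and NK cell, mitosis and ribosomal protein genes have none in either direction.

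Wnt signalling is a main pathway of osteoblast differentiation, and 21 of 52 measured members rose while 1 fell (median 0.34). Most calls were receptors and antagonists. Of 16 receptors 10 rose, among them Lgr4 (2.22 ± 0.22), Lrp4 (1.28 ± 0.19), Ryk (1.21 ± 0.15) and the co-receptor Lrp5 (1.17 ± 0.15). Lgr4, a receptor of R-spondins, was at 6.38, 6.58, 6.74 and 6.42 at day 2 and 8.95, 8.54, 8.42 and 9.10 at day 4, without overlap. Of 10 secreted antagonists 6 rose. Dkk1, which blocks the Lrp co-receptors, was at 5.26, 5.80, 5.01 and 5.74 at day 2 and 8.57, 7.41, 7.54 and 8.70 at day 4. Replicates 1 and 4 were the high day 4 arrays, as they were for Phex, and the rise was 2.60 ± 0.31 (adjusted p = 7.75e-05). Sfrp2 (1.26 ± 0.29), Dkk3 (1.14 ± 0.13) and Wif1 (1.12 ± 0.22) rose as well. Of 18 ligands and R-spondins 2 rose, Rspo3 (1.07 ± 0.23) and Wnt5b (0.45 ± 0.12), and Wnt7b fell by 0.53 ± 0.11. Among effectors and targets 3 of 8 rose, including Tcf7 (1.26 ± 0.18) and Ctnnb1 (0.68 ± 0.12), while Axin2, a common transcriptional readout of the pathway, did not pass (0.45 ± 0.19, adjusted p = 0.135), nor did Lef1 (-0.22 ± 0.22). Wnt5b no longer passed without day 2 replicate 1 (0.38 (adjusted p = 0.0872)).

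For BMP and TGF-beta signalling 17 of 52 members rose and 0 fell, with a median of 0.30. Of 15 ligands 5 rose. Bmp3, an atypical ligand that opposes bone formation, was at 4.35, 7.08, 5.89 and 6.50 at day 2 and 9.78, 8.95, 8.92 and 9.75 at day 4, and rose by 3.40 ± 0.51 (adjusted p = 0.000491). Replicate 1 was the lowest day 2 array. Bmp8a (1.26 ± 0.26), Tgfb3 (1.02 ± 0.26), Bmp5 (0.95 ± 0.16) and Bmp2 (0.90 ± 0.22) were the others. Bmp4 (0.65 ± 0.25) and Bmp7 (0.00 ± 0.14) did not pass. Of 10 receptors 4 rose, Bmpr1a by 1.48 ± 0.23. Among effectors and targets, Smad6, an inhibitory Smad that the pathway induces, rose by 1.53 ± 0.24, Smad9 by 1.09 ± 0.19 and Id3 by 1.15 ± 0.26, whereas Id1, another target, did not pass (-0.57 ± 0.28, adjusted p = 0.195). Bambi, a decoy receptor, rose by 1.93 ± 0.26. The antagonists Nog (-0.13 ± 0.12), Grem1 (0.16 ± 0.24) and Chrd (-0.03 ± 0.13) did not pass. Without day 2 replicate 1 Tgfb3 differed by 0.85 (adjusted p = 0.0613) and no longer passed.

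Receptors for growth factors and hormones known to act on osteoblasts were among the rises. Fgfr2 was at 5.89, 7.57, 7.33 and 7.36 at day 2 and 9.50, 9.18, 9.36 and 9.42 at day 4, a rise of 2.33 ± 0.31, and Fgfr1 rose by 1.78 ± 0.26. They stood in a list of 19 FGF genes where 4 rose and 1 fell, the co-receptor Klb (-0.54 ± 0.14), whose call ended without day 2 replicates 2 or 4 or day 4 replicate 4. Of 20 PDGF and VEGF genes 10 rose. Pdgfra, the receptor that marks mesenchymal cells, was at 6.34, 6.63, 6.98 and 6.90 at day 2 and 9.22, 8.68, 8.90 and 8.95 at day 4, and rose by 2.23 ± 0.21 (adjusted p = 2.33e-05). The ligands Pdgfd (2.59 ± 0.42), Pdgfc (1.45 ± 0.21) and Pdgfa (1.16 ± 0.22) rose, while Pdgfrb (0.39 ± 0.14) and Vegfa (-0.70 ± 0.28, adjusted p = 0.122) did not pass. Hormone receptors of bone rose in 3 of 13 cases, and the other 10 did not pass, while without day 4 replicate 3 the list had 6 rises. Pth1r, the parathyroid hormone receptor of osteoblasts, was at 6.19, 7.99, 8.07 and 7.51 at day 2 and 10.29, 9.94, 10.03 and 10.15 at day 4, and rose by 2.66 ± 0.42 (adjusted p = 0.000657). Vdr, the vitamin D receptor, rose by 1.58 ± 0.19 and Esr1, an oestrogen receptor, by 0.46 ± 0.13, or 0.47 (adjusted p = 0.0557) without day 2 replicate 1. Hedgehog signalling had 4 of 13 members higher (Gli3 1.45 ± 0.14, Boc 1.22 ± 0.20, Smo 0.93 ± 0.21, Gli2 0.56 ± 0.17), with the ligand Ihh (-0.01 ± 0.14) and the target Gli1 (0.10 ± 0.16) not passing, and without day 2 replicate 1 Gli2 differed by 0.49 (adjusted p = 0.11) and no longer passed. In the insulin-like growth factor axis 3 of 14 rose, Igfbp5 by 1.41 ± 0.37, or 1.23 (adjusted p = 0.0725) without day 2 replicate 1, where it no longer passed.

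Axon guidance molecules, which steer growing nerves and also act between bone cells and vessels, rose in 17 of 35 cases with no fall and a median of 0.65. The count was 16 after centring and 17 without day 2 replicate 1. Sema3d, a secreted semaphorin, was at 5.73, 5.45, 5.78 and 5.40 at day 2 and 8.47, 7.69, 7.48 and 8.36 at day 4. The groups did not overlap, and replicates 1 and 4 were again the higher day 4 arrays, with a rise of 2.41 ± 0.22 (adjusted p = 1.76e-05). Robo2, a Slit receptor, was at 6.32, 6.07, 5.89 and 5.56 at day 2 and 8.26, 7.70, 7.61 and 8.18 at day 4, a rise of 1.98 ± 0.24, and its ligands Slit2 and Slit3 rose by 1.69 ± 0.28 and 1.68 ± 0.20. Unc5b, a netrin receptor, rose by 2.18 ± 0.28, while the ligand Ntn1 did not pass (-0.13 ± 0.16). Plxnb1 (1.90 ± 0.21) rose and its ligand Sema4d, which osteoclasts make, did not pass (-0.34 ± 0.20, adjusted p = 0.277). Sema3a, a semaphorin of bone formation, rose by 0.83 ± 0.15.

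Itga10 (2.46 ± 0.22) and Itga11 (1.67 ± 0.27), the alpha chains of collagen-binding integrins, were among 4 of 23 integrins that rose. The count was 2 without day 2 replicate 4 or any one of day 4 replicates 1, 2 and 4. Itga10 was at 5.16, 5.13, 4.81 and 5.70 at day 2 and 7.82, 7.74, 7.40 and 7.68 at day 4. The fourth, Itgb1, their common partner chain, rose by 0.41 ± 0.13 (adjusted p = 0.0476), and did not pass under 12 of 21 other settings, among them the fit without day 2 replicate 1 (0.32 (adjusted p = 0.139)) and the replicate block over the 8 AT-I arrays (adjusted p = 0.0679). Itga5 (-0.20 ± 0.17), the fibronectin receptor chain, and Itgam (-0.37 ± 0.19), a myeloid chain, did not pass. Of 17 gap junction and cadherin genes 6 rose and 1 fell, a fall that was lost without day 2 replicates 1, 3 or 4 or day 4 replicates 1, 2 or 4. Cdh2, N-cadherin, rose by 2.48 ± 0.22 (adjusted p = 1.73e-05) and Gja1, the connexin of bone cells, by 2.02 ± 0.34.

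Outside the lists, several of the largest rises were genes with known roles in bone or mesenchyme, chosen here after their values were seen. Tmem119, a membrane protein of osteoblasts and microglia, was at 6.92, 7.73, 8.35 and 7.90 at day 2 and 10.27, 10.10, 10.10 and 10.04 at day 4, a rise of 2.40 ± 0.28. Cthrc1, a secreted protein of wound and bone matrix, rose by 2.65 ± 0.43, and Mme, the neprilysin peptidase, by 2.40 ± 0.24. Ptprz1, a receptor phosphatase, was at 5.80, 6.17, 5.63 and 5.61 at day 2 and 9.33, 8.43, 8.23 and 9.35 at day 4, and rose by 3.03 ± 0.31 (adjusted p = 3.32e-05). Mamdc2, an extracellular matrix protein, rose by 2.88 ± 0.35, Cgref1, a secreted calcium-binding protein, by 2.77 ± 0.38 and Ptprd, another receptor phosphatase, by 2.71 ± 0.25.

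The list of osteoclast genes and their regulators had 3 of 19 members higher (15.8%, beside 8.84% of all genes), with a median of 0.27. Of the resorption machinery 2 of 9 rose, and of the genes of differentiation and fusion 1 of 10. The count over the list was 1 without day 4 replicate 4, where Atp6v0d2 and Ctsk no longer passed. It was 1 with the interquartile range as a covariate and 5 with the replicate block. Atp6v0d2, a proton pump subunit, was at 5.32, 7.18, 8.03 and 7.31 at day 2 and 9.01, 8.62, 8.61 and 10.32 at day 4. Replicate 1 was lowest at day 2 and replicate 4 highest at day 4, and without day 2 replicate 1 the rise of 2.18 ± 0.57 (adjusted p = 0.0218) was 1.63 (adjusted p = 0.0648). Ctsk, cathepsin K, was at 7.54, 9.94, 10.37 and 10.07 at day 2 and 11.34, 11.19, 11.28 and 12.06 at day 4, and rose by 1.99 ± 0.49, or 1.34 (adjusted p = 0.0135) without the same array. Tnfrsf11b, the decoy receptor osteoprotegerin made by osteoblasts, rose by 1.50 ± 0.24 (adjusted p = 0.000876). Tnfsf11, the RANK ligand that it binds, did not pass (0.30 ± 0.19, adjusted p = 0.316), nor did the RANK receptor Tnfrsf11a (0.29 ± 0.29).

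Markers of the other cells that an implant could carry were measured beside these changes, by lists and by arrays. The lists of erythroid (17 genes), platelet (11), T and NK cell (22), B lineage (13), mast cell and eosinophil (14), skeletal muscle (20) and adipocyte genes (14) had 0 members called in either direction in the main fit. Some had calls in other settings. After centring 3 T and NK cell genes fell, with the interquartile range as a covariate 4 B lineage genes fell, and with the replicate block 2 adipocyte genes rose. The mean of the skeletal muscle genes ran from 5.39 to 5.53 at day 2 and from 5.10 to 5.47 at day 4. Hbb, a haemoglobin chain, was at 13.57 to 13.70 at day 2 and 13.43 to 13.50 at day 4 (-0.15 ± 0.09, adjusted p = 0.309). The erythroid mean of replicate 3 was lowest on both days, at 9.36 and 9.19, against 10.21 to 10.65 and 9.82 to 10.60 on the others. The mean of the 21 neutrophil genes ran from 9.36 to 10.18 at day 2 and from 9.09 to 9.77 at day 4. Endothelial genes had 2 of 17 members higher (0 after centring, 1 without day 2 replicate 3 or day 4 replicates 1 or 4, and 5 with the replicate block) and Schwann cell genes 2 of 11 (0 without day 2 replicate 1, and 1 without day 2 replicate 2 or day 4 replicates 1, 2 or 4). Cartilage genes had 2 of 16, Acan (1.27 ± 0.31) and Col11a2 (1.41 ± 0.17, also in the list of fibrillar collagens), with a median of -0.07. Mesenchymal stromal markers rose in 2 of 14 cases, Pdgfra and Cspg4 (1.33 ± 0.29), and in 4 without day 4 replicate 3 or with the replicate block. The shares that rose were 11.8% of endothelial, 18.2% of Schwann cell, 12.5% of cartilage and 14.3% of stromal genes, beside 8.84% of all genes. Genes of mitosis (28), DNA replication (35), ribosomal proteins (38), the respiratory chain (37) and lysosomes (24) also had 0 calls in either direction in the main fit. With the covariate 5 DNA replication genes fell, and without day 2 replicate 1 the respiratory chain had 1 fall. With the replicate block 1 lysosome gene rose. The part of cell composition in the changes was not tested.

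**Figure D4:**
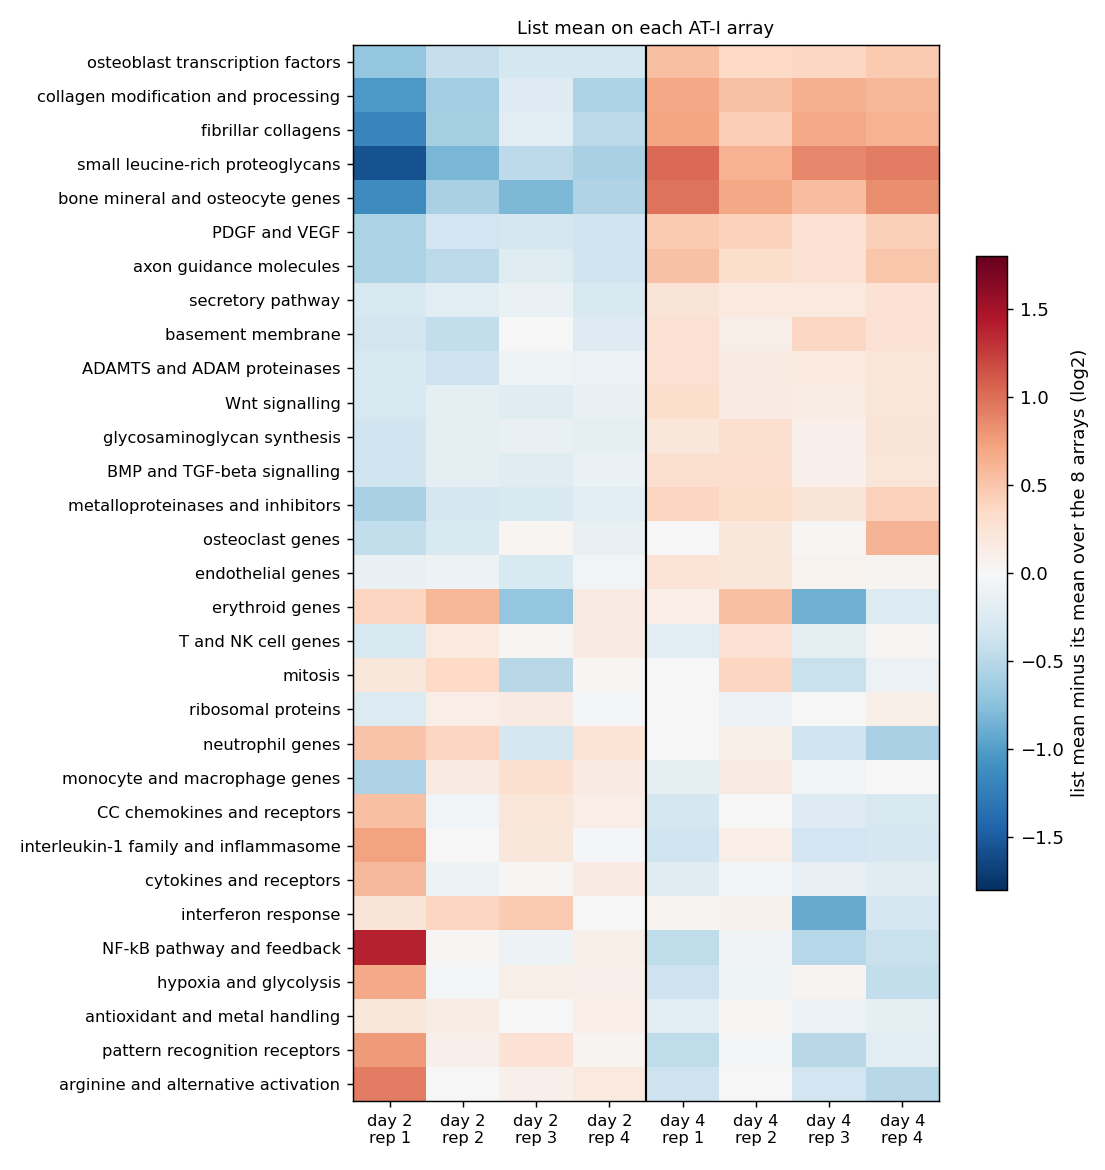
Mean of the measured members of each gene list on each AT-I array, minus the list's mean over the 8 arrays (log2, red higher, blue lower), with the days separated by a line. The lists of fibrillar collagens, small leucine-rich proteoglycans and bone mineral genes are low on all day 2 arrays and lowest on replicate 1, the NF-kB list stands high on that array alone (9.98 against 8.50 to 8.69), and erythroid genes are low in replicate 3 on both days.

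Genes of inflammation held the largest falls, with wide spread between arrays. Cxcl2, a chemokine that attracts neutrophils, was at 13.06, 10.90, 11.78 and 11.63 at day 2 and 7.64, 10.73, 8.83 and 6.59 at day 4. The highest day 4 array, replicate 2, lay just below the lowest day 2 array. It fell by 3.39 ± 0.99 (adjusted p = 0.037), and differed by -2.99 (adjusted p = 0.104) without day 2 replicate 1. Its relatives Cxcl1 (-2.24 ± 0.75, adjusted p = 0.0656) and Cxcl3 (-1.95 ± 0.62, adjusted p = 0.0524) did not pass over all groups. With only the 8 AT-I arrays fitted Cxcl3 passed, both without the replicate block (adjusted p = 0.0157) and with it (adjusted p = 0.0163). Of 18 CXC chemokines and receptors 1 fell and 1 rose, the B cell chemokine Cxcl13 (1.08 ± 0.20). Falls in that list numbered 0 to 3 when single arrays were left out and 3 with the replicate block. Of 28 CC chemokines and receptors 3 fell and 0 rose. The falls numbered 0 without day 2 replicate 1 or day 4 replicate 1, 6 without day 2 replicate 2, 6 with the replicate block and 7 after centring. Ccl3 was at 13.26, 11.24, 11.78 and 11.83 at day 2 and 8.87, 11.22, 10.05 and 8.88 at day 4, and fell by 2.27 ± 0.70 (adjusted p = 0.0476). With the replicate block it no longer passed (adjusted p = 0.0573). Ccl2, the chemokine of monocytes, was at 12.63, 11.60, 12.52 and 11.97 at day 2 and 10.50, 11.37, 11.27 and 11.09 at day 4, and fell by 1.12 ± 0.27 (adjusted p = 0.0145). Ccl6 fell by 0.87 ± 0.24. All 3 calls ended without day 2 replicate 1, where the difference was -1.86 (adjusted p = 0.139) for Ccl3, -0.97 (adjusted p = 0.0505) for Ccl2 and -0.61 (adjusted p = 0.0641) for Ccl6.

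The RefSeq sequence before the start of Cxcl2 (GRCr8, chr14:17467256-17467505, minus strand, 250 bases, 5′ to 3′) is given because NF-kB is a known activator of this gene. The NF-kB consensus, searched on both strands, matched it at 2 overlapping places, 74 to 65 and 73 to 64 bases before the start, in capitals.
Cxcl2: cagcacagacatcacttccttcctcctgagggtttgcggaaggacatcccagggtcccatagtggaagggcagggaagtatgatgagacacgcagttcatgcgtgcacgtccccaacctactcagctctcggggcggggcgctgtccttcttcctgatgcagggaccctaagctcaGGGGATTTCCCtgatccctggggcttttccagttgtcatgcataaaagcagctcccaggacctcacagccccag
The consensus was present in 3.54% of all promoters of that length. It was present in 3.89% of the genes tested that have an entry, and in 5.6% of the 357 of them that fell. The windows of Il1rn and Olr1 held no match.

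Cytokines were unevenly called. Il1b was at 13.03, 9.90, 10.83 and 10.15 at day 2 and 8.65, 10.29, 7.78 and 8.17 at day 4. Its groups overlapped through day 4 replicate 2, and the difference of -2.25 ± 0.84 did not pass (adjusted p = 0.0949). Il1a (-2.17 ± 1.38, adjusted p = 0.314), Tnf (-1.29 ± 0.54, adjusted p = 0.134) and Il6 (-1.96 ± 0.79, adjusted p = 0.122) did not pass either. Il1a was at 12.17 on day 2 replicate 1 and between 6.66 and 7.28 on the other 3. Il1rn, the natural antagonist of interleukin-1, was at 12.53, 10.77, 11.30 and 11.00 at day 2 and 9.63, 10.58, 9.72 and 9.94 at day 4, and fell by 1.43 ± 0.37 (adjusted p = 0.0193), and differed by -1.06 (adjusted p = 0.0538) without day 2 replicate 1. Nlrp3, the inflammasome sensor, fell by 0.99 ± 0.31 (adjusted p = 0.0485). In the list of 38 other cytokines and receptors 3 rose and 4 fell, with 7 falls without day 2 replicate 2, 2 without day 2 replicate 3 and 1 without any one of day 2 replicates 1 and 4 and day 4 replicates 1 and 4. Lifr, the receptor of leukaemia inhibitory factor, was at 6.47, 7.11, 7.10 and 6.95 at day 2 and 9.13, 8.59, 8.19 and 9.38 at day 4, and rose by 1.91 ± 0.24 (adjusted p = 0.00012), with Il13ra2 (0.92 ± 0.20) and Il6st (0.38 ± 0.11). Csf2rb, a receptor chain of myeloid growth factors, fell by 1.06 ± 0.25, Il10 by 0.75 ± 0.22, Mif by 0.48 ± 0.15 and Il4r by 0.43 ± 0.12. Without day 2 replicate 1 the calls of Nlrp3 (-0.62 (adjusted p = 0.107)), Il10 (-0.59 (adjusted p = 0.118)), Mif (-0.44 (adjusted p = 0.115)), Il4r (-0.36 (adjusted p = 0.0876)) and Il6st (0.41 (adjusted p = 0.0536)) ended. With the replicate block over the 8 AT-I arrays Nlrp3 (adjusted p = 0.0818) and Il4r (adjusted p = 0.0818) did not pass. Among 16 genes of the NF-kB pathway 2 fell, Ier3 (-1.63 ± 0.40) and Sod2 (-0.92 ± 0.28). The list's median of -0.70 was -0.35 without day 2 replicate 1, where Sod2 no longer passed (-0.56 (adjusted p = 0.0853)). Sod2 was also lost with the replicate block over the 8 AT-I arrays (adjusted p = 0.0501), and without day 4 replicate 4 the list had 0 falls. Nfkbia, the pathway's own inhibitor, was at 12.66 on that array, against 10.09 to 10.58, and did not pass (-1.20 ± 0.50, adjusted p = 0.134).

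Interferon-induced genes fell in 4 of 33 cases, with a median of -0.44. Isg15, a ubiquitin-like modifier, was at 10.08, 8.61, 9.09 and 8.52 at day 2 and 7.32, 7.57, 6.24 and 7.10 at day 4. Day 2 replicate 1 was the highest array and day 4 replicate 3 the lowest, and the groups did not overlap. It fell by 2.02 ± 0.40 (adjusted p = 0.0039), or 4.05-fold, and was called in all 21 other settings. Ifit3 was at 11.76, 9.90, 10.55 and 10.24 at day 2 and 9.31, 9.60, 8.16 and 8.54 at day 4, and fell by 1.71 ± 0.43 (adjusted p = 0.0178). Oasl fell by 1.39 ± 0.37 and Ifi35 by 0.58 ± 0.17. Mx1 (-0.96 ± 0.44, adjusted p = 0.173), Mx2 (-1.30 ± 0.76, adjusted p = 0.275) and Irf7 (-0.91 ± 0.40, adjusted p = 0.148) did not pass. Mx2 was low on day 2 replicate 1 (6.47) and high on replicates 2 and 3 (9.36 and 9.82), whereas the NF-kB list was highest on replicate 1. The list mean ran from 7.86 to 8.33 at day 2 and was 6.96 on day 4 replicate 3, against 7.54 to 7.95 on the other day 4 arrays. Without day 2 replicate 1 the count of falls was 1, since Ifit3 (-1.33 (adjusted p = 0.0562)), Oasl (-1.06 (adjusted p = 0.0703)) and Ifi35 (-0.63 (adjusted p = 0.0528)) no longer passed. It was 2 without day 4 replicate 4, 8 with the replicate block and 9 after centring.

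For Ifit3 the window of 250 bases before the start (RefSeq, GRCr8, chr1:241527076-241527325, plus strand, 5′ to 3′) is shown because interferon-induced genes are known for a repeated GAAA element. The core of the interferon-stimulated response element (GAAA, then any pair of bases, then GAAA), searched on both strands, occurred once, on the minus strand, from 44 to 35 bases before the start, in capitals.
Ifit3: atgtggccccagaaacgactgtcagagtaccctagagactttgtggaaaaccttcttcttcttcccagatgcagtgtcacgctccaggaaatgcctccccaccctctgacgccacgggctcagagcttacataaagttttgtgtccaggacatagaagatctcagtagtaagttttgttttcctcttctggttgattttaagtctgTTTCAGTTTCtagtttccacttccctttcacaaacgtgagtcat
Of all promoters of that length 3.41% held the motif, as did 3.13% of the genes tested that have an entry and 2.24% of those that fell. Isg15, Phex, Panx3 and Ccl3 have no entry in the table.

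Receptors by which myeloid cells sense microbes, lipids and metabolites fell in 6 of 21 cases and rose in none, with a median of -0.43. The count was 3 without day 4 replicate 1 and 11 after centring. Hcar2, a receptor of hydroxybutyrate and niacin, was at 12.08, 8.70, 9.05 and 9.10 at day 2 and 6.79, 8.42, 6.47 and 6.32 at day 4. Replicate 1 stood more than 2.5 above the other day 2 arrays, and the fall of 2.73 ± 0.83 (adjusted p = 0.0438) was a difference of -1.95 (adjusted p = 0.13) without it. Olr1, a scavenger receptor of oxidised lipoprotein, fell by 2.20 ± 0.61 (adjusted p = 0.0296) and differed by -1.48 (adjusted p = 0.0637) without that array. Clec4e, the lectin Mincle, was at 12.32, 10.45, 10.92 and 10.66 at day 2 and 9.11, 9.92, 9.26 and 9.39 at day 4, and fell by 1.67 ± 0.39 (adjusted p = 0.0117), with -1.26 (adjusted p = 0.0298) without it. Tlr2 fell by 0.89 ± 0.23 (or a difference of -0.59 (adjusted p = 0.0292) without day 2 replicate 1), Cd14, its co-receptor, by 0.67 ± 0.15 and the adaptor Myd88 by 0.56 ± 0.12. Tlr4 (-0.15 ± 0.12) did not pass. Of 21 neutrophil genes 2 fell, and 4 with the replicate block. Mcemp1, a membrane protein of granulocytes and monocytes, was at 10.66, 9.87, 9.59 and 9.60 at day 2 and 9.22, 9.11, 8.07 and 8.41 at day 4, and Csf3r, which encodes a growth factor receptor of the neutrophil lineage, was at 11.19, 10.46, 10.06 and 10.30 at day 2 and 9.60, 9.95, 9.44 and 9.35 at day 4. They fell by 1.23 ± 0.28 and 0.92 ± 0.21 without overlap. S100a8, a calprotectin subunit abundant in neutrophils, did not pass (-0.48 ± 0.17, adjusted p = 0.0824, and 0.0351 with the replicate block), and the primary granule genes Elane (-0.75 ± 0.39), Prtn3 (-1.03 ± 0.51) and Mpo (-0.42 ± 0.37) did not pass. Among 23 monocyte and macrophage genes Spi1 (-0.53 ± 0.14), Fcgr1a (-0.49 ± 0.15) and Cd14 fell and Mertk, a receptor for apoptotic cells, rose (0.83 ± 0.25, adjusted p = 0.04). The defining genes Csf1r (0.10 ± 0.21), Cd68 (0.40 ± 0.29) and Adgre1 (-0.06 ± 0.34) did not pass. Without day 2 replicate 1 the calls of Fcgr1a (-0.53 (adjusted p = 0.0671)) and Mertk (0.61 (adjusted p = 0.121)) ended, yet the list then had 4 falls and 0 rises and its median moved from -0.06 to -0.29. Without day 4 replicate 1 it had 1 fall, and the rise of Mertk was called without day 2 replicate 3 but not without any other single array.

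Arginine metabolism had 4 of 13 members lower, and none when day 2 replicate 1, day 2 replicate 4 or day 4 replicate 4 was left out. The count was 1 without day 4 replicate 1, and 2 without day 2 replicate 2 or day 4 replicate 3. Arg1, arginase, was at 10.42, 7.69, 9.29 and 8.83 at day 2 and 7.51, 7.63, 7.97 and 7.72 at day 4. Day 2 replicate 2 lay within the day 4 range, and the fall was 1.35 ± 0.40 (adjusted p = 0.0408), or a difference of -0.90 (adjusted p = 0.104) without replicate 1. Ass1, which rebuilds arginine from citrulline, fell by 1.15 ± 0.32 (adjusted p = 0.0318), and its difference was -1.01 (adjusted p = 0.0942) without replicate 1. Nos2, the inducible nitric oxide synthase, was at 12.74, 9.63, 9.93 and 10.25 at day 2 and 8.18, 9.97, 7.68 and 7.21 at day 4, and did not pass (-2.38 ± 0.86, adjusted p = 0.0848).

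Genes of low oxygen and glycolysis fell in 6 of 35 cases, with a median of -0.36. The count was 3 without day 2 replicate 1, 2 without day 4 replicates 1 or 4, 13 without day 4 replicate 3 and 0 with the interquartile range of each array as a covariate. Egln3, an oxygen-sensing prolyl hydroxylase that hypoxia induces, was at 10.67, 9.42, 9.31 and 9.40 at day 2 and 7.77, 8.58, 8.99 and 7.73 at day 4. Replicate 1 was high at day 2 and the groups did not overlap. It fell by 1.43 ± 0.32 (adjusted p = 0.00877). Slc16a3, the lactate exporter, fell by 1.12 ± 0.31 (adjusted p = 0.0269), and differed by -0.77 (adjusted p = 0.0626) without replicate 1. Tpi1 (-0.71 ± 0.17), Pfkfb3 (-0.67 ± 0.15), Pfkl (-0.60 ± 0.17) and Gpi (-0.43 ± 0.11), enzymes of glycolysis, fell, of which Pfkl (-0.42 (adjusted p = 0.0944)) and Gpi (-0.36 (adjusted p = 0.0623)) no longer passed without replicate 1. Slc2a1, the glucose transporter, was at 12.25, 10.05, 10.33 and 10.57 at day 2 and 9.10, 9.96, 10.37 and 8.71 at day 4, and did not pass (-1.27 ± 0.47, adjusted p = 0.0925), nor did Ldha (-0.27 ± 0.21) and Hif1a (-0.28 ± 0.14). Antioxidant genes had 6 of 26 lower and 2 higher. Srxn1, sulfiredoxin, fell by 0.95 ± 0.22 (adjusted p = 0.0103), and Nqo1 (-0.76 ± 0.20), Gsr (-0.43 ± 0.13) and Sod1 (-0.36 ± 0.11) fell too, while Gpx3, a secreted glutathione peroxidase, rose by 1.43 ± 0.27 (adjusted p = 0.00258). The list had 2 falls without day 2 replicate 1, 3 without day 4 replicate 2, 1 without day 4 replicates 1 or 4 and 11 after centring. Without day 2 replicate 1 the calls of Nqo1 (-0.57 (adjusted p = 0.0599)), Gsr (-0.43 (adjusted p = 0.091)) and Sod1 (-0.39 (adjusted p = 0.0588)) ended.

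The 36 falls called in every setting that tested them are few, and the genes named here were chosen after their values were seen. They are a mixed set. Beside Isg15, Mcemp1, Csf3r and Cd14 they hold genes with dim rows and no known tie to implants or immune cells, such as the odorant receptors Or8b43 (-1.16 ± 0.20) and Or6d12c (-0.91 ± 0.19), the homeobox gene Hoxd12 (-0.66 ± 0.12) and Pcp2 (-0.58 ± 0.13), a gene of Purkinje cells. Each of these dim genes was tested in 19 of the 21 other settings, since the filters on low means left it out. Tspo, a cholesterol-binding protein of the outer mitochondrial membrane, was at 10.07, 9.72, 9.62 and 9.38 at day 2 and 8.32, 8.78, 8.32 and 8.65 at day 4. Both groups were compact on this scale and did not overlap, and the fall was 1.18 ± 0.16 (adjusted p = 0.000272). Plin2, the coat protein of lipid droplets, was at 12.07, 11.19, 11.59 and 11.38 at day 2 and 9.75, 10.58, 10.87 and 10.26 at day 4, and fell by 1.19 ± 0.25 (adjusted p = 0.00604). Fcar, an Fc receptor for IgA, fell by 1.25 ± 0.29, Ptger2, a prostaglandin E2 receptor, by 1.24 ± 0.26, Ncf4, a subunit of the phagocyte oxidase, by 0.88 ± 0.15, Tgm2, transglutaminase 2, by 0.90 ± 0.18, Cst7, cystatin F, by 0.84 ± 0.16 and Psmb8, an immunoproteasome subunit, by 0.77 ± 0.15. Other falls often lost their calls when a single array was left out, and which array did so varied. Of 33 falls named by the rule on named genes, 15 no longer passed without day 2 replicate 1, 15 without day 4 replicate 1 and 16 without day 4 replicate 4. Cxcl2, Ccl3 and Hcar2 lost their calls without any one of day 2 replicates 1, 3 and 4 and of day 4 replicates 1 and 4. Of 105 rises named by the same rule, 9 lost their calls without day 2 replicate 1, 7 without day 4 replicate 1 and 8 without day 4 replicate 4.

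The time course on AT-I was set against that on AT-II, the microrough surface, in the same fit. No gene passed the test of the difference (0 of 17245 in limma, smallest adjusted p = 0.924, 707 at an unadjusted p under 0.05), and none passed in any of the other settings where it was run. Of the 1525 genes that rose on AT-I, 1489 were also higher in the mean on AT-II, and of the 458 that fell, 405 were lower. These are directions only, and the surfaces share rats. On AT-II itself 575 genes (3.33%) passed in either direction, against 1983 (11.5%) on AT-I. The SE was larger on AT-II, where day 2 replicates 2 and 3 were averaged as 1 sample, and the fit did not model shared rats. These counts are therefore no test of a difference between the surfaces. For single genes, Phex changed by 4.24 ± 0.39 on AT-I and 3.85 ± 0.42 on AT-II (adjusted p of the difference = 0.942), Bglap by 3.81 ± 0.60 on AT-I and 3.44 ± 0.65 on AT-II (adjusted p of the difference = 0.967) and Isg15 by -2.02 ± 0.40 on AT-I and -0.77 ± 0.43 on AT-II (adjusted p of the difference = 0.924). Cxcl2 changed by -3.39 ± 0.99 on AT-I and -1.74 ± 1.07 on AT-II (adjusted p of the difference = 0.924). At this number of arrays a difference in time course between the surfaces was not detectable for any gene, which does not show that the time courses are the same.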

How the data were processed

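RNA of implant-adherent cells was hybridised to 16 Affymetrix Rat Gene 1.1 ST arrays in 4 groups, per the labels' protocols. What the authors deposited is log2 expression, and the submitters' processing notes name RMA and Affymetrix Expression Console. That the logarithm has base 2 is an inference from RMA. No version or filter is given in the sources used here. RMA forces the arrays towards one distribution, so a shift shared by most genes can be reduced or removed. The gene values used here kept unequal array medians and interquartile ranges, as given above. Values ran from 1.82 to 14.01.

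Of 29214 rows, 18644 named 1 gene in the platform annotation, 962 several and 9608 none, and only the first kind was used. GRCr8 gene identifiers matched 18460 of them. For 879 genes with more than 1 row the brightest row was used.

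Groups came from sample titles. Group means of all 4 groups were fitted without covariates by lmFit and eBayes of limma 3.58.1 (R 4.3.3, two-sided tests), and the AT-I change and its difference from the AT-II change were tested over 17245 genes with Benjamini-Hochberg adjustment. AT-II day 2 replicates 2 and 3, which differed far less than other pairs (correlation 0.9947), were averaged as 1 sample, leaving 15. The method was tested on simulated data. The exact permutation tests and tables used Python 3.11.15.

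The members and 61 gene lists were chosen with earlier results of these data known. Named genes were, among called genes without overlap, the 12 largest rises and the 12 largest falls, and from each list up to 3 measured members with the smallest p. Other genes are list members given by their values, or are said to be chosen after their values were seen. Alternatives changed the scaling, the choice of row, a filter on low means, array weights, the interquartile range as a covariate, the prior variance, the arrays fitted, the replicate block, and each AT-I array in turn.

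Replicate numbers recur in every group. Over all genes, deviations of same-numbered AT-I arrays of the 2 days correlated at 0.216, 0.617, 0.434 and 0.132 for replicates 1 to 4. Replicates 1 and 4 correlated better with another number (0.292 and 0.239). The days are different rats and the labels give no shared batch, so the numbers establish no pairing. As every same-number correlation was over 0.1, the number was run as a block, in alternative fits only. The main fit was fixed without the block, and the value with the block over all 16 arrays is given where it changed a call or a count by over 1.5 times. A second fit with the block over the 8 AT-I arrays alone was added after the data were seen, and its effect on the genes named by the rule is given with the alternatives.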

Additional observations from a re-analysis of the deposited data

Results flagged for a closer look

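Single AT-I arrays far from the other 3 of their group were found for 31 of 410 groups of 4 examined, each a named gene or a list mean on one day. About 1 in 20 groups is flagged by chance. The values are log2 expression, with no explanation tested. On day 2 replicate 1 matrix and growth factor genes were low. Mmp2 was at 6.75, Fgfr2 at 5.89, Sp7 at 5.74, Pdgfc at 6.95, Kdelr2 at 10.29, Cdkn1c at 5.38 and Cttn at 7.59. Genes of osteoclasts and macrophages were low on it too. Ctsk was at 7.54, Lpl at 9.03, RT1-Db1 at 6.04 and Hexa at 8.62, and the mean of the monocyte and macrophage genes was 8.89. Inflammatory and stress genes were high on the same array. Sod2 was at 12.34, Nlrp3 at 10.0, Dusp1 at 11.37, Egln3 at 10.67, Rab20 at 10.94 and Hcar2 at 12.08.

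The other 13 were spread over the arrays. At day 2 Col24a1 (6.8) and Il13ra2 (5.88) were high on replicate 4, Hdc (7.99) and Spi1 (9.7) were high on replicate 2, and Cenpf (8.18) was low on replicate 3. At day 4 Smpd3 (10.65) was high on replicate 1 and Myd88 (9.38) on replicate 2. On day 4 replicate 3 Sox10 (5.78) and the mean of the Schwann cell and nerve genes (6.2) were high and Ebf1 (9.17) was low. On day 4 replicate 4 Klf4 (8.45) and Rpl4 (11.94) were high and S100a8 (11.37) was low.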

How the results depend on the processing

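No called change of the 189 genes named by the rule turned its sign under an alternative. The 1983 calls were 1060 with only the 8 AT-I arrays fitted, and 1314 with the interquartile range as a covariate. Leaving out 1 array gave 1158 to 2954 calls, of which 991 to 1884 were rises and 167 to 1070 falls. The 1525 rises were 959 with only the 8 arrays, 991 after centring and 947 with the covariate. The 458 falls were 101 with only the 8 arrays, 1504 after centring, 218 and 178 with genes of a mean above 6 and 7 only (fewer genes tested), and 716 with array weights. With the replicate block they were 722 over 16 arrays and 892 over the 8 AT-I arrays, the latter chosen after seeing the data. The cause was not tested. Calls of the difference between surfaces numbered 0 in limma under each setting where it was run. Of 3916 values of named genes under alternatives, 3628 stayed on their side of the threshold, 201 no longer passed and 87 newly passed. With only the 8 AT-I arrays fitted, so without the spread of AT-II, 14 of 33 named falls and 7 of 105 named rises ended. The falls were Il4r, Slc11a1, Spi1, Myd88, Tpi1, Ccl6, Sod2, Nlrp3, Csf2rb, Ass1, Arg1, Oasl, Rab20 and Olr1. The rises were Ctsk, C1r, Mertk, Smtn, Esr1, Egfl7 and Itgb1. The covariate ended 22 of 33 named falls and 14 of 105 named rises, and centring ended 7 rises (Ncam1, Mertk, Smtn, Aplnr, Esr1, Egfl7 and Itgb1). The block over 16 arrays ended the call of Ccl3, and beside S100a8 the genes Lpl, Kitlg, Sox18, Hexa, Maml2, Nlrc4 and Dusp1 newly passed. It changed no other call of a gene named by the rule. The block over the 8 AT-I arrays ended the calls of Il4r, Sod2, Nlrp3, Itgb1 and Egfl7 (adjusted p 0.0501 to 0.0859), and Lpl, Cdkn1c, Kitlg, Cenpe, Mcm2, Ckm, Vpreb1a, Trib3 and Cxcl3 newly passed (0.0088 to 0.0497).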

Other observations

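Lists outside bone and inflammation gave further calls. Of 15 circadian clock genes 3 rose and 2 fell, with 0 falls without day 4 replicates 1 or 4 and 1 without day 2 replicates 1, 3 or 4 or day 4 replicate 2. Rora, a nuclear receptor that drives the clock's activator arm, was at 5.41, 5.94, 6.10 and 5.99 at day 2 and 6.99, 6.44, 6.64 and 6.91 at day 4, and rose by 0.88 ± 0.17 (adjusted p = 0.0036) in the limma fit, with the groups apart. Per3 rose by 0.86 ± 0.16 and Clock by 0.66 ± 0.14, and Npas2 fell by 0.46 ± 0.13. Nfil3, an output repressor that inflammation also induces, fell by 1.03 ± 0.30 (adjusted p = 0.0363) and differed by -0.67 (adjusted p = 0.0755) without day 2 replicate 1. Bmal1 (0.20 ± 0.15) and Per2 (0.38 ± 0.14) did not pass. Complement genes rose in 4 of 16 cases and fell in 1, with 2 rises and 2 falls without day 2 replicate 1 and 1 rise with the interquartile range as a covariate. Serping1, the inhibitor of the first component, rose by 1.43 ± 0.27, and the proteases of that component, C1r and C1s, by 0.94 ± 0.21 and 1.07 ± 0.27, while C1qa (0.07 ± 0.27), a macrophage product, did not pass. C1s differed by 0.89 (adjusted p = 0.056) without day 2 replicate 1 and no longer passed. The fall in complement genes was lost without day 2 replicates 3 or 4 or day 4 replicates 1, 2 or 4.

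Of 22 coagulation and fibrinolysis genes 4 rose and 0 fell. Serpinf1, pigment epithelium-derived factor, a matrix protein whose loss gives brittle bones, was at 7.58, 8.60, 9.32 and 8.84 at day 2 and 11.11, 10.83, 10.72 and 11.13 at day 4, a rise of 2.37 ± 0.32 (adjusted p = 0.000221) without overlap. Serpine2, a thrombin inhibitor, rose by 1.76 ± 0.26. Of 23 genes of prostaglandin and leukotriene enzymes and receptors 2 rose and 1 fell, with 2 falls without day 2 replicate 3 or with the replicate block. The 8.7% that rose was near the 8.84% of all genes, and the 4.35% that fell, 1 gene, stood beside 2.66%. Ptgis, prostacyclin synthase, was at 5.36, 5.34, 5.45 and 5.91 at day 2 and 8.26, 7.70, 7.31 and 7.75 at day 4, and rose by 2.24 ± 0.29 (adjusted p = 0.000133). That is the brighter of its 2 array rows, and the lowest rise over the other settings was 1.41. Ptgfr, the prostaglandin F receptor, rose by 1.03 ± 0.15, the prostaglandin E2 receptor Ptger2 fell as given above, and Ptgs2, the inducible cyclooxygenase, did not pass (-1.91 ± 0.80, adjusted p = 0.134). The actomyosin list had 5 of 25 members higher, among them Cnn3 (0.90 ± 0.14) and Cald1 (0.75 ± 0.15), while Actb (-0.06 ± 0.09) and Myh9 (-0.07 ± 0.14) did not pass. Of 14 pericyte and smooth muscle genes 4 rose (2 without day 4 replicate 1, and 2 after centring), led by Rgs5 (1.10 ± 0.23), a pericyte marker.

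Chemosensory receptor genes, a family of 1322 measured members, were chosen after the data were seen and are not known for a role at implants. In the main fit they had 0 rises and 41 falls, a share of 3.1% near the 2.66% of all genes that fell. Their median change was -0.41, against -0.05 for all genes. Leaving out day 2 replicates 1, 2, 3 and 4 in turn gave 11 (0.832%), 140 (10.6%), 15 (1.13%) and 23 (1.74%) falls. Among all 17245 genes the same fits gave 262, 732, 302 and 298. Leaving out day 4 replicates 1, 2, 3 and 4 in turn gave 24 (1.82%), 9 (0.681%), 198 (15%) and 9 (0.681%) falls. Among all genes those fits gave 234, 272, 1070 and 167. With the replicate block there were 75 (5.67%) over 16 arrays and 335 (25.3%) over the 8 AT-I arrays, beside 722 and 892 falls among all genes. After centring there were 82 (6.2%), beside 8.72% of all genes. The median of the family on an array was 5.65 ± 0.378 (SD, n = 4) at day 2 and 5.24 ± 0.478 at day 4 (exact permutation p = 0.2286). With the interquartile range of each array as a covariate the family had 26 rises (1.97%) and 3 falls (0.227%), beside 947 and 367 among all genes.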
